A study of Mus musculus with 18 samples.

Results

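Undifferentiated mouse embryonic stem cells (ESCs) of a line labelled Oct1 cKO were compared with ESCs of the parental line. The comparison holds the 3 Oct1 cKO libraries and the 3 parental libraries that the labels place at day 0, which are 6 of the 18 bulk RNA-seq libraries of the series. They were chosen by genotype and day in the labels alone, and the libraries of later days, taken under retinoic acid, were not used. ESCs are pluripotent cells of the early embryo that divide in culture and can form every lineage. The labels also call the 2 groups KO and WT. They give no strain, sex, clone number, day 0 medium or feeder layer, and neither the Cre nor the deleted exons of the Oct1 allele are given in the sources used here, so it is not known whether the cKO line is a single clone.

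Oct1 is the product of Pou2f1, a broadly expressed transcription factor of the POU family. POU factors carry a POU-specific domain and a POU homeodomain, and Oct1, Oct2 and Oct4 bind the octamer motif ATGCAAAT. Oct4, the product of Pou5f1, maintains pluripotency, usually together with Sox2. The series title connects Oct1 with Smad proteins, which carry nodal, activin, TGF-beta and BMP signals to the nucleus, and with mesoderm, so genes of these pathways are described in detail.

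Between 13694126 and 17458382 reads were counted per Oct1 cKO library, and between 17114542 and 19072464 per parental library. Levels are given as CPM, counts scaled to the normalized library size of each sample, and differences as log2 fold changes of Oct1 cKO over parental with a standard error (SE). A gene was called where the adjusted p of edgeR's quasi-likelihood test was under 0.05. The ESC markers Pou5f1, Sox2, Nanog, Zfp42, Esrrb, Klf4, Tdgf1, Dppa5a, Fgf4 and Utf1 all exceeded 40 CPM in each of the 6 libraries. The placenta markers Tpbpa and Prl3d1 and the visceral endoderm marker Ttr had no count in any of them, which allows up to 0.157 to 0.22 CPM per library. Other trophoblast and extraembryonic endoderm markers were counted. Mean levels in Oct1 cKO and parental cells were 7.89 and 4.7 CPM for Dab2, and 2.41 and 1.37 CPM for Cdx2. Oct1 cKO replicate 3 stood apart from replicates 1 and 2. Its counts differed from theirs by a chi-square of 10.8 and 10.4 per degree of freedom, while replicates 1 and 2 differed by 1.22 and the parental libraries among themselves by 2.61 to 6.78. Ribosomal protein genes took 5.37, 5.43 and 6.64% of counts in Oct1 cKO libraries 1, 2 and 3, against 4.88, 4.95 and 4.99% in the parental libraries. Where that library decided the call of a gene described here, the value without it is given. Such calls rest on a smaller spread, since replicates 1 and 2 lie close together.

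In the Oct1 cKO cells, transcripts of Pou2f1 itself (GRCm38 chromosome 1, 165865154 to 166002678, minus strand; ENSMUSG00000026565) were reduced but still counted. The gene had 81.4, 82.5 and 57.5 CPM in the Oct1 cKO libraries and 125, 115 and 118 CPM in the parental libraries. Every Oct1 cKO library lay below every parental library, and Oct1 cKO replicate 3 was the lowest. The log2 fold change was -0.70 ± 0.11 (SE, adjusted p = 0.000204), or -0.54 without Oct1 cKO replicate 3. The counts cover the whole gene, so reads from exons outside a deletion are included, and the level does not measure functional Oct1.

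The close relatives of Pou2f1 moved in opposite directions. Pou2f3 (ENSMUSG00000032015, GRCm38 chromosome 9, 43123939 to 43210369, minus strand) encodes Oct11, an octamer-binding factor known from epidermis and from tuft cells of epithelia. Its level was 85.8, 83.2 and 80.5 CPM in the Oct1 cKO libraries and 7.19, 7.79 and 8.87 CPM in the parental libraries, so the libraries of each group lay close together and the groups were far apart. It rose 10.4-fold (log2 3.39 ± 0.08, adjusted p = 5.84e-10). Pou2f2, which encodes Oct2, the octamer factor of B cells, stood at 1.97, 2.27 and 1.96 CPM in the Oct1 cKO libraries and 4.52, 5.18 and 5.53 CPM in the parental libraries. It fell by 1.30 on the log2 scale (adjusted p = 2.5e-05), again without overlap.

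Pou5f1, the gene of Oct4 (GRCm38 chromosome 17, 35506018 to 35510772, plus strand), was higher in the Oct1 cKO cells. The Oct1 cKO libraries held 1307, 1318 and 1602 CPM and the parental libraries 792, 867 and 829 CPM. Oct1 cKO replicate 3 was the highest of the 6, and the groups did not overlap. The rise was 0.77 ± 0.08 in log2 (adjusted p = 5.92e-06), and 0.67 without that library. Among the neural POU genes, Pou3f2 (Brn2) was at 2.25, 2.86 and 2.02 CPM in the Oct1 cKO libraries and 0.928, 0.471 and 0.864 CPM in the parental libraries (1.65 ± 0.27, adjusted p = 0.000292). Pou4f2 (Brn3b, a factor of retinal ganglion cells) was at 5.69, 5.94 and 5.43 CPM in the Oct1 cKO libraries and 2.55, 2.35 and 2.48 CPM in the parental libraries (1.20 ± 0.13, adjusted p = 1.35e-05). Both rose, as did Pou3f1 (Oct6) by 0.38. The call of Pou3f1 was lost under DESeq2 and without Oct1 cKO replicate 1 or parental replicate 1 or 3, with an adjusted p between 0.0186 and 0.144 over the alternatives.

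Of the 9 POU genes reported here that passed the filter on low counts, 5 rose and 2 fell. Pou3f2 passed through the Oct1 cKO libraries alone, so its direction was set by the filter. Over all 15095 genes tested, 58% were called, 28.5% higher and 29.5% lower. Pou4f1, a factor of sensory neurons, and Pou6f1 were not called, with log2 fold changes of -0.01 and -0.06, and their groups overlapped. Pou3f3, Pou3f4 and Pou4f3 were under the filter, and Pou5f2, Pou1f1 and the coactivator gene Pou2af1 were not analysed here. The summed level of the list was 1505, 1516 and 1769 CPM in the Oct1 cKO libraries and 951, 1017 and 983 CPM in the parental libraries, most of it from Pou5f1.

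**Figure D1:**
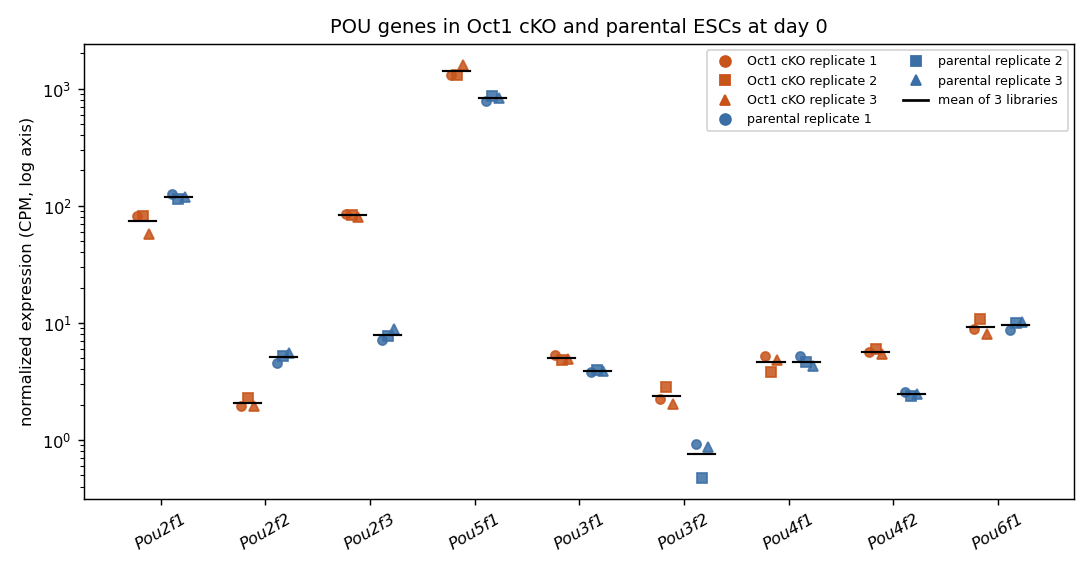
Normalized expression (CPM, log axis) of 9 tested POU genes, with each Oct1 cKO library (orange) left of each parental library (blue) and a bar at the mean of 3 libraries. Pou2f3 and Pou5f1 are higher in every Oct1 cKO library, Pou2f1 and Pou2f2 are lower, and the groups of Pou4f1 and Pou6f1 overlap.

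Since Oct1 and its relatives bind the octamer, the letters ATGCAAAT were searched on both strands of RefSeq promoters (GRCm38.p6), from 250 bases before to 50 bases after each gene's start. They occur in 532 of 27025 genes (1.97%). Only 72.5% of the tested genes could be matched to a promoter, and the others are not covered. Of the 10949 tested genes matched, 185 (1.69%) hold an octamer. The share was 1.65% in genes called higher, 1.82% in those called lower and 1.62% in those not called, given without a test. Among genes that changed at least 2-fold, an octamer is held by 10 of 488 that rose (2.05%) and 18 of 656 that fell (2.74%). The 5 of them that belong to a gene list used below are shown, each from up to 25 bases before the octamer to 25 bases after it. Plppr2, which encodes a lipid phosphatase-related membrane protein, is added for its 4 octamers, and it was chosen after its values were seen. Capitals mark the octamer, which reads as its reverse complement in Pfkfb3 and Slc7a11.
Col3a1: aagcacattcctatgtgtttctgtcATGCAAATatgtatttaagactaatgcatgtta
Pfkfb3: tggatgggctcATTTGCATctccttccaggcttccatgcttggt
Slc7a11: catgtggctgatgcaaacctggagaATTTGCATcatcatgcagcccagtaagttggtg
Srgn: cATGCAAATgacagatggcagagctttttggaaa
Sox1: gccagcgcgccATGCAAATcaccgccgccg
Plppr2: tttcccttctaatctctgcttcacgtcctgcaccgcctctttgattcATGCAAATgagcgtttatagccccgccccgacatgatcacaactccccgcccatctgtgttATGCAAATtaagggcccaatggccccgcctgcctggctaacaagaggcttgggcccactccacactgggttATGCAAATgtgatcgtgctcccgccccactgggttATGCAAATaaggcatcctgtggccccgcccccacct

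The octamer of Col3a1 (chr1:45311365-45311422, plus strand), a fibrillar collagen gene, starts at -148 from the transcription start. The gene had 19.4, 18.2 and 21 CPM in the Oct1 cKO libraries and 69.6, 73.6 and 64.5 CPM in the parental libraries. That of Slc7a11 (chr3:50443630-50443687, minus strand), the cystine transporter gene, starts at -49, and the gene had 0.281, 0.293 and 0.636 CPM in the Oct1 cKO libraries and 1.97, 1.62 and 2.25 CPM in the parental libraries. Both genes fell, and neither had overlapping groups, but Slc7a11 passed the filter through the parental libraries alone. Pfkfb3 (chr2:11554136-11554179, minus strand), a glycolytic regulator with its octamer at -239, had 15.9, 17.5 and 12.9 CPM in the Oct1 cKO libraries and 31, 31.9 and 35.1 CPM in the parental libraries. Srgn (chr10:62507974-62508007, minus strand), a secretory granule proteoglycan gene with its octamer at -249, had 0.913, 1.25 and 1.79 CPM in the Oct1 cKO libraries and 3.89, 3.14 and 3.8 CPM in the parental libraries. These fell as well, by log2 -1.09 ± 0.10 and -1.41 ± 0.22. Sox1 (chr8:12395526-12395555, plus strand), a factor of early neural cells, has its octamer 18 bases after the start, shown with 11 bases on either side. It rose, with 4, 3.45 and 3.53 CPM in the Oct1 cKO libraries and 0.696, 0.471 and 1.32 CPM in the parental libraries. Plppr2 (chr9:21936760-21937009, plus strand) rose too, with 15.3, 14.7 and 16.8 CPM in the Oct1 cKO libraries and 2.61, 4.65 and 3.51 CPM in the parental libraries (2.11 ± 0.15, adjusted p = 4.93e-07). A match is a description of these letters, and binding was not measured.

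Expression differed across a large part of the genome between the 2 lines. At a fold of at least 2, 848 genes (5.62% of those tested) rose and 961 (6.37%) fell. At least 4-fold changes were found in 202 genes that rose and 157 that fell. For 9809 tested genes (65%) the 3 libraries of the groups did not overlap. The median log2 fold change over all tested genes was -0.00.

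Leaving out genes with predicted or clone-type symbols, the largest increases at 2 CPM or more, besides Pou2f3, were in a mixed set of genes. Zfp352, a zinc finger gene expressed in the 2-cell embryo, had 11.2, 10.8 and 11.2 CPM in the Oct1 cKO libraries and 0.754, 0.889 and 0.864 CPM in the parental libraries (3.71 ± 0.14). Kcnd3, a voltage-gated potassium channel, had 7.16, 9.83 and 6.24 CPM in the Oct1 cKO libraries and 0.812, 0.889 and 0.518 CPM in the parental libraries (3.35 ± 0.25). Neither gene had overlapping groups. Homeobox or forkhead genes of later organs were among them: Foxd1 (kidney stroma and retina) rose by 2.73, Vax2 (ventral retina) by 2.61 and Tlx2 (enteric neurons) by 2.57. Ano1, a calcium-activated chloride channel, rose by 2.66, Robo4, a guidance receptor of endothelium, by 2.60, and Rnf144b, a ubiquitin ligase, by 2.83. Kcnd3, Tlx2 and Rnf144b passed the filter through the Oct1 cKO libraries alone.

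Among the largest decreases, Usp26, an X-linked deubiquitinase gene known from testis, had 14.4, 15.5 and 10.5 CPM in the Oct1 cKO libraries and 140.3, 137 and 140.4 CPM in the parental libraries. It was 10.4-fold lower (log2 -3.38 ± 0.10, adjusted p = 1.4e-09). Igfbp4, a secreted protein that binds insulin-like growth factors, was at 6.88, 6.97 and 6.59 CPM in the Oct1 cKO libraries and 61.8, 66.3 and 58.1 CPM in the parental libraries (-3.19 ± 0.08, adjusted p = 6.53e-10). In both genes the groups were separated by a wide gap. Crlf2, a subunit of the receptor for thymic stromal lymphopoietin, was at 0.632, 0.44 and 0.578 CPM in the Oct1 cKO libraries and 13.1, 14 and 11.5 CPM in the parental libraries (-4.52 ± 0.18), and like Platr13 it passed the filter through the parental libraries alone. Aass, the first enzyme of lysine breakdown, fell by 3.32 on the log2 scale, Osbpl6, an oxysterol-binding protein relative, by 3.13, and Otog, an inner ear matrix protein, by 3.07. Platr13, a long noncoding RNA of ESCs on chromosome 11, had 1, 2 and 3 counts in the Oct1 cKO libraries and 115, 116 and 106 counts in the parental libraries, so no fold is given.

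By absolute level, and again without predicted or clone-type symbols, the 10 largest gains were in Hsp90ab1, Actb, Hspa8, Trim28, Pou5f1, Rps2, Hsp90aa1, Rplp0, Rps3 and Ybx1. Hsp90ab1, a cytosolic chaperone, had 8568 ± 197 CPM in Oct1 cKO cells and 7471 ± 83 CPM in parental cells (SD, n = 3 each), a log2 difference of 0.20. Actb, cytoplasmic actin, had 3068 ± 179.9 CPM in Oct1 cKO cells and 2236 ± 25.2 CPM in parental cells (0.46). Trim28, a corepressor of retroelements, had 2254 ± 123 CPM in Oct1 cKO cells and 1499 ± 30.9 CPM in parental cells (0.59). All of these rose. Ribosomal genes Rps2 (0.38), Rplp0 (0.42) and Rps3 (0.36) rose too, and they were highest in Oct1 cKO replicate 3, the library with the largest ribosomal protein share. Without that library the differences were 0.32, 0.33 and 0.26.

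**Figure D2:**
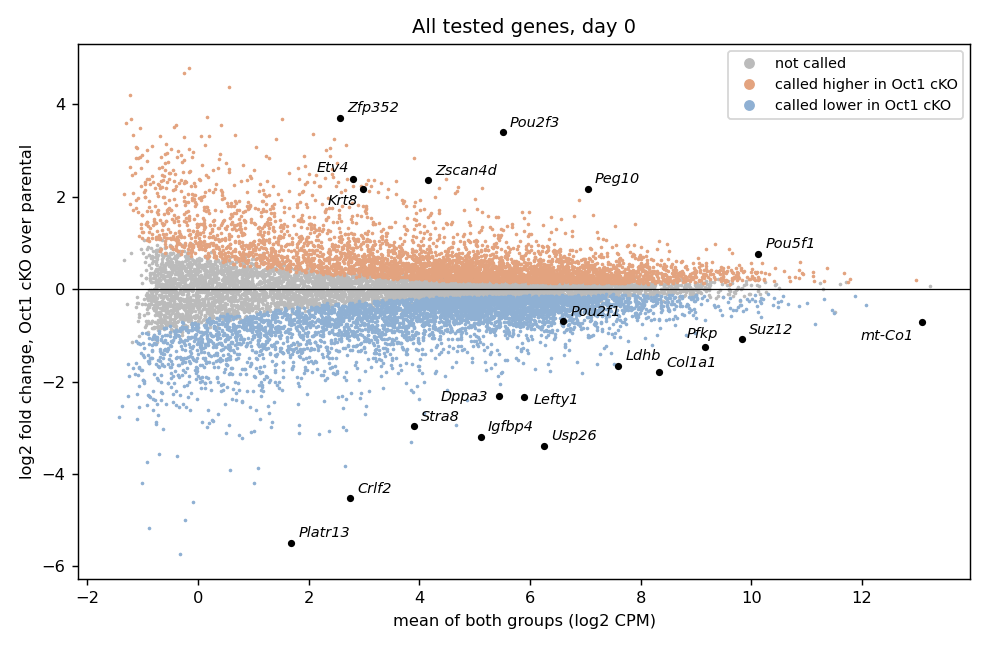
Log2 fold change of Oct1 cKO over parental against the mean of both groups (log2 CPM) for the 15095 tested genes, with genes called higher in orange, lower in blue and not called in grey. Pou2f3 at 3.39 and Usp26 at -3.38 stand far from most genes at their level, while Pou2f1 lies at -0.70.

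Genes of chromosome 11 were lower as a group along its whole length. The chromosome holds 878 genes with a mean of 5 CPM or more, of which 69.9% fell and 8.09% rose. Their median log2 ratio to the parental mean was -0.39, -0.39 and -0.36 in the 3 Oct1 cKO libraries, against -0.01, 0.01 and 0.00 in the parental libraries. The medians of the other autosomes in the fit lay between -0.06 and 0.15. In 13 bins of 10 Mb, the median log2 fold change ran from -0.61 (20 to 30 Mb) to -0.26 (110 to 120 Mb), and between 59.1 and 91.3% of the genes in a bin fell. No bin had a median above 0. Since the genes of a chromosome are not replicates, no test was made.

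Several genes described here lie on chromosome 11, and their changes can be read beside its median. Suz12, Igfbp4, Platr13, Axin2, Tcf7, Col1a1, Pecam1, Sqstm1, Pycr1, Slc16a3, Aldoc, Grb10, Socs3, Ezh1, Npm1, Canx and Eif4a1 were lower, and Etv4, Epop, Calcoco2 and Wnt3a, which passed the filter through the Oct1 cKO libraries alone, rose against it. Npm1, a nucleolar histone chaperone, had 3802 ± 181 CPM in Oct1 cKO cells and 4832 ± 108 CPM in parental cells (-0.35), close to the chromosome's median. Canx, a chaperone of the endoplasmic reticulum, differed by -0.60, and Eif4a1, a helicase of translation initiation, by -0.30. With the genes of this chromosome left out of the fit, 3900 genes rose and 3870 fell.

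**Figure D3:**
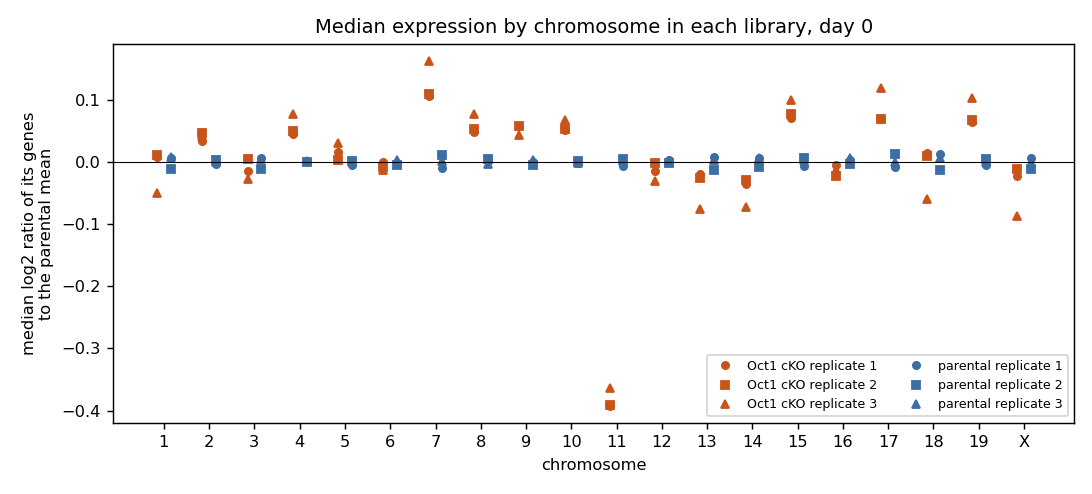
Median log2 ratio to the parental mean over the genes of each chromosome at 5 CPM or more, with Oct1 cKO libraries in orange left of parental libraries in blue. The 3 Oct1 cKO libraries lie between -0.39 and -0.36 on chromosome 11, below those of every other chromosome drawn.

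Nodal is a TGF-beta family ligand of the early embryo that signals through activin receptors and Smad2 and Smad3, and it induces its own inhibitors Lefty1 and Lefty2. In the Oct1 cKO cells the inhibitor Lefty1 fell strongly, while the ligand gene rose by 0.16 and 9 of the 18 tested pathway genes rose. Another 5 fell and 4 were not called. Lefty1 (ENSMUSG00000038793, GRCm38 chromosome 1, 180935022 to 180938400, plus strand) stood at 18.3, 18.7 and 21.8 CPM in the Oct1 cKO libraries and 92.4, 106 and 99.95 CPM in the parental libraries. The highest Oct1 cKO library was far below the lowest parental library, and the level was 5.04-fold lower (log2 -2.33 ± 0.08, adjusted p = 3.27e-09). Its neighbour Lefty2 had 182, 191 and 199.9 CPM in the Oct1 cKO libraries and 262, 258 and 262 CPM in the parental libraries, a smaller decrease of -0.45 ± 0.05 (adjusted p = 1.62e-05).

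Of the ligands and coreceptor, Nodal had 145, 147 and 166 CPM in the Oct1 cKO libraries and 136, 143 and 131 CPM in the parental libraries. Its rise, 0.10 without Oct1 cKO replicate 3, was near the threshold, with an adjusted p between 0.00817 and 0.193 over the alternatives, and it was not called with library sizes alone, under DESeq2, without chromosome 11 or without any 1 of the parental libraries. Gdf3, a related ligand, and Tdgf1, the coreceptor Cripto, were not called (0.11 and -0.00). Gdf3 was called without Oct1 cKO replicate 2 or 3, at 0.09 without replicate 3. The proprotein convertases that cut the Nodal precursor were higher. Pcsk6 (Pace4) had 229.9, 231 and 214 CPM in the Oct1 cKO libraries and 105, 106 and 112 CPM in the parental libraries (1.06 ± 0.05, adjusted p = 2.95e-08), and Furin rose by 0.33.

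The receptor genes did not move together. The type I receptor Acvr1b (Alk4) had 38.7, 43.2 and 38.3 CPM in the Oct1 cKO libraries and 19.4, 18.7 and 19.9 CPM in the parental libraries (1.05 ± 0.07, adjusted p = 3.78e-07). The type II receptors Acvr2a and Acvr2b differed by -0.32 and -0.39. Both were lowest in Oct1 cKO replicate 3, without which they differed by -0.16 and -0.25, and the call of Acvr2a was lost without any 1 parental library. Among the nuclear mediators, Smad3 rose by 0.50 and its partner Foxh1 by 0.59, with 38, 39.1 and 42 CPM of Foxh1 in the Oct1 cKO libraries and 25.5, 26.7 and 26.8 CPM in the parental libraries. Smad2 and the shared Smad4 were not called (-0.11 and 0.00).

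Negative regulators other than the Lefty genes did not move together. Skil (SnoN, a corepressor of Smads) had 82.5, 78 and 61.4 CPM in the Oct1 cKO libraries and 138, 143 and 146 CPM in the parental libraries (-0.95 ± 0.09, adjusted p = 3.98e-06). Its relative Ski rose by 0.14, a call near the threshold (adjusted p between 0.000605 and 0.164 over the alternatives) that was lost under DESeq2, with library sizes alone, with no filter, without chromosome 11 and without Oct1 cKO replicate 2 or any 1 parental library. Smad7, the inhibitory Smad, had 111, 112 and 114 CPM in the Oct1 cKO libraries and 82.6, 80.0 and 77.3 CPM in the parental libraries (0.49 ± 0.05, adjusted p = 9.48e-06). Pmepa1, a membrane protein that sequesters Smads, rose by 0.74. The summed level of the pathway genes was 2241, 2250.0 and 2248 CPM in the Oct1 cKO libraries and 2243, 2225 and 2229 CPM in the parental libraries.

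The BMP branch, which signals through Smad1 and Smad5, had 7 members higher and 7 lower of 22 tested, 31.8% each. Over all tested genes, 28.5% rose and 29.5% fell. Bmp4, the BMP ligand that induces mesoderm, had 5.12, 4.77 and 6.94 CPM in the Oct1 cKO libraries and 1.68, 1.62 and 1.27 CPM in the parental libraries (1.89 ± 0.20). Bmp7 was lower, with 4.35, 5.79 and 7.22 CPM in the Oct1 cKO libraries and 12.6, 12.4 and 12.3 CPM in the parental libraries (-1.09 ± 0.14). The groups overlapped in neither gene. The Id genes, targets of BMP that inhibit differentiation factors, split, with Id3 rising by 0.88 and Id2 falling by 0.58 on the log2 scale. The receptor gene Bmpr1b had 2, 8 and 1 counts in the Oct1 cKO libraries and 20, 33 and 30 counts in the parental libraries, too few for a stable fold, and it passed the filter through the parental libraries alone.

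Beside Pou5f1, most genes of naive pluripotency were higher or not called, and Dppa3 was much lower. Of 29 tested genes of naive pluripotency, 17 rose and 4 fell, with a median log2 fold change of 0.26 against -0.00 over all genes. Without Oct1 cKO replicate 3, 22 rose. Nanog, a core factor, had 984, 1024 and 969 CPM in the Oct1 cKO libraries and 919.9, 907 and 931 CPM in the parental libraries. Sox2 had 401, 412 and 420.4 CPM in the Oct1 cKO libraries and 434, 414 and 423 CPM in the parental libraries. Neither was called (0.11 and -0.04), nor were Zfp42 (0.07) and Esrrb (0.09). Without Oct1 cKO replicate 3 these genes were called at differences of 0.13, -0.05, 0.07 and 0.13.

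Prdm14, a repressor that supports the naive state and germ cell formation, had 65.2, 63.1 and 60.5 CPM in the Oct1 cKO libraries and 23, 26.3 and 27.3 CPM in the parental libraries (1.30 ± 0.07, adjusted p = 7.87e-08). Utf1, a chromatin factor of ESCs, had 109, 108 and 135 CPM in the Oct1 cKO libraries and 46.2, 53.1 and 49.8 CPM in the parental libraries (1.24 ± 0.09). Both rose without overlap. Lin28a, which binds let-7 precursors, rose by 0.83, Tfcp2l1, a factor of the naive state, by 0.56 and Tbx3 by 0.52. Dppa3 (Stella), a maternal factor that protects DNA methylation marks, was at 13.3, 13.2 and 16.7 CPM in the Oct1 cKO libraries and 72.6, 72.6 and 71.4 CPM in the parental libraries. It fell by 2.31 on the log2 scale (adjusted p = 3.55e-09), and Klf2 (-0.33) and Fgf4 (-0.32) fell less. Nr5a2 fell by 0.21, or -0.12 without Oct1 cKO replicate 3, a call lost without any 1 parental library.

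Leukaemia inhibitory factor (LIF) keeps mouse ESCs undifferentiated through its receptor subunit gp130 and STAT3. Of 15 tested genes of this route, 8 fell and 3 rose, with a median of -0.24. Il6st, which encodes gp130, had 92.2, 93.1 and 75 CPM in the Oct1 cKO libraries and 179, 179 and 177 CPM in the parental libraries (-1.04 ± 0.07, adjusted p = 4.69e-07). The STAT3 targets Socs2 (-0.63), Socs3 (-0.37), Pim1 (-0.52) and Junb (-0.55) fell, Socs3 by about the median of its chromosome 11, while Bcl3 (0.66) and Gbx2 (0.53) rose. Stat3 itself was not called (-0.05). Genes of formative and primed pluripotency, the states that follow the naive one, rose in 4 and fell in 8 of 16 tested cases. Lef1, a Wnt effector, fell (-0.90), while Dnmt3b rose.

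Of 18 tested genes of DNA methylation and demethylation, 9 rose and 3 fell. Dnmt3l, the catalytically inactive partner of the de novo methyltransferases, had 309.7, 307 and 320.4 CPM in the Oct1 cKO libraries and 157, 169 and 158 CPM in the parental libraries (0.95 ± 0.05, adjusted p = 4.36e-08). Dnmt3b had 188, 185 and 161 CPM in the Oct1 cKO libraries and 96.8, 95.3 and 99.8 CPM in the parental libraries (0.87 ± 0.06), while Dnmt3a fell slightly (-0.19). Tet2, a demethylating dioxygenase, had 323, 319.8 and 234 CPM in the Oct1 cKO libraries and 174, 169 and 175 CPM in the parental libraries (0.76 ± 0.10). Its relative Tet1 had 511, 526 and 331 CPM in the Oct1 cKO libraries and 405, 393 and 400.5 CPM in the parental libraries. It was not called (0.19), with Oct1 cKO replicate 3 below the parental libraries and replicates 1 and 2 above them, and it was called at 0.38 without replicate 3. Kdm2b, which recruits Polycomb complexes to CpG islands, rose by 0.91, and Uhrf2 fell by 0.52.

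Polycomb repressive complex 2 methylates histone H3 on silent developmental genes, and its core holds Ezh1 or Ezh2, Eed and Suz12. The core genes did not move together. Suz12 (GRCm38 chromosome 11, 79993106 to 80034123, plus strand) had 615, 618 and 512 CPM in the Oct1 cKO libraries and 1252, 1208 and 1232 CPM in the parental libraries. It fell by 1.08 on the log2 scale (adjusted p = 1.97e-07), below the median of its chromosome 11. Ezh1 fell by 0.81, Eed rose by 0.44 and Ezh2 was not called (-0.04). Of the accessory genes, Phf19 had 1.97, 2.42 and 2.2 CPM in the Oct1 cKO libraries and 6.96, 6.38 and 6.33 CPM in the parental libraries (-1.58 ± 0.14), and Epop rose by 0.87. In the whole list of 21 Polycomb and histone demethylase genes, 8 rose (38.1%) and 6 fell (28.6%), against 28.5% and 29.5% over all tested genes.

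The genes of the 2-cell-like state that could be tested were higher. This state, entered by few cells of an ESC culture at a time, shares transcripts such as Zscan4 with the 2-cell embryo. Of 28 genes on the list, 23 passed the filter on low counts, and these 23 rose. Of them, 16 reached the level of the filter in every library of both groups, and 7 passed through the Oct1 cKO libraries alone, so that they had to be higher there. In bulk RNA, more cells in such a state and more RNA per cell cannot be told apart. The summed level of the list was 566, 585 and 579 CPM in the Oct1 cKO libraries and 251, 243 and 251 CPM in the parental libraries, most of it from the broadly expressed autophagy receptor gene Calcoco2. Without Calcoco2 the sum was 222, 224 and 216 CPM in the Oct1 cKO libraries and 46.6, 47.7 and 49.5 CPM in the parental libraries. The groups did not overlap in either sum. Duxf3, the mouse Dux gene that activates the state, was under the filter.

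Zscan4d, a zinc finger gene linked to telomere maintenance, had 29.2, 29.4 and 30.8 CPM in the Oct1 cKO libraries and 5.05, 5.86 and 6.62 CPM in the parental libraries (2.35 ± 0.10, adjusted p = 6.66e-09). Zscan4c had 19.4, 18.7 and 19.8 CPM in the Oct1 cKO libraries and 5.22, 4.6 and 4.15 CPM in the parental libraries (2.05 ± 0.10). The groups were apart in both, and Zscan4a and Zscan4f rose by 2.19 and 1.79. Tcstv1 (2.32), Tcstv3 (3.25) and Tdpoz1 (2.81), further genes of the 2-cell embryo, rose as well. Sp110, a nuclear body protein, rose by 2.01, and Calcoco2 by 0.83. Tdpoz1 and Sp110 are among the 7 that passed the filter through the Oct1 cKO libraries alone.

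Members of the Zscan4 cluster are near-identical copies, so their reads can be shared between them and the level of a single copy is uncertain. The similarity is visible in the promoters of Zscan4c (chr7:11005591-11005721, plus strand), Zscan4d (chr7:11166183-11166313, minus strand) and Zscan4f (chr7:11397784-11397914, plus strand) from RefSeq (GRCm38.p6). Stretches of 131 bases before the start are shown, aligned without gaps, and capitals mark the 5 positions at which they are not all alike. The identity was 96.9% between Zscan4c and Zscan4d, 99.2% between Zscan4c and Zscan4f and 96.2% between Zscan4d and Zscan4f.
Zscan4c: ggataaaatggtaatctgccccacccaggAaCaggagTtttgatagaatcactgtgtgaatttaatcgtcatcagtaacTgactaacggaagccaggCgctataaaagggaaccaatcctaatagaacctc
Zscan4d: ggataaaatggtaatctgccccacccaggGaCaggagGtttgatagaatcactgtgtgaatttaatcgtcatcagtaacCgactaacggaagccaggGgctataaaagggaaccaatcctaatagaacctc
Zscan4f: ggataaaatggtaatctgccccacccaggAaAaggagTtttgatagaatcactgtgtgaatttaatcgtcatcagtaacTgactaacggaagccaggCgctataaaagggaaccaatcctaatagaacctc

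Germline genes were mostly lower or not called. Of 24 tested, 12 fell and 1 (Tex101) rose, with a median of -0.37. The call of Tex101 was lost under DESeq2, without chromosome 11 and without parental replicate 2 or 3. Stra8, the retinoid-induced gatekeeper of meiosis, had 2.81, 2.79 and 4.39 CPM in the Oct1 cKO libraries and 26.8, 26.5 and 26.1 CPM in the parental libraries (-2.96 ± 0.13, adjusted p = 1.11e-08). Dazl, an RNA-binding protein of germ cells, had 100.25, 105 and 91.7 CPM in the Oct1 cKO libraries and 241, 234 and 220.1 CPM in the parental libraries (-1.23 ± 0.06). Rhox5, an X-linked homeobox gene, had 26.4, 26 and 35 CPM in the Oct1 cKO libraries and 86.1, 90.1 and 89.2 CPM in the parental libraries (-1.59 ± 0.10). All of them fell with no overlap, and Tfap2c, which is shared by germ cells and trophoblast, fell by 1.40. The meiotic genes Hormad1 (-0.62) and Sycp3 (-0.80) fell too.

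Primitive streak and mesoderm genes were low in both lines, with a higher sum in the Oct1 cKO cells. Of 26 genes on the list, 17 passed the filter, 12 of them in both groups, 3 through the Oct1 cKO libraries alone and 2 through the parental libraries alone. Of the 17, 9 rose and 2 fell. The summed level was 48.9, 48.5 and 52.1 CPM in the Oct1 cKO libraries and 26.6, 27 and 27.5 CPM in the parental libraries. Most of this difference came from Eomes, Bmp4 and Tcf15. Mixl1, Tbx6, Hand1, Hand2, Meox1, Lhx1 and Wnt3 were under the filter, and Kdr and Foxc1 were among those not called. Eomes, a T-box factor of the streak and of trophoblast, had 12.7, 13.2 and 14.2 CPM in the Oct1 cKO libraries and 4.58, 4.76 and 5.7 CPM in the parental libraries. Tcf15, a factor of paraxial mesoderm that ESCs also express, had 6.04, 4.99 and 5.61 CPM in the Oct1 cKO libraries and 1.86, 1.73 and 1.9 CPM in the parental libraries. Both rose, by log2 1.42 and 1.60. T (Brachyury) stood at 1.76, 1.91 and 1.33 CPM in the Oct1 cKO libraries and 0.87, 1.31 and 0.806 CPM in the parental libraries, and its call was lost under DESeq2, in the fit of 18 libraries and without Oct1 cKO replicate 1 or 2 or parental replicate 1 or 3 (adjusted p between 0.00872 and 0.129 over the alternatives). Foxf1 (-1.67) and Foxc2 (-1.03), factors of lateral and paraxial mesoderm, fell, Foxf1 having passed the filter through the parental libraries alone.

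Trophoblast genes also rose more often than they fell, in 9 (64.3%) against 3 (21.4%) of 14 tested. Over all tested genes, 28.5% rose and 29.5% fell. Eomes and Cdx2, among those that rose, are also on the list of primitive streak and mesoderm. The keratin pair Krt8 and Krt18, made by simple epithelia, rose, with 11.9, 12.4 and 14.6 CPM of Krt8 in the Oct1 cKO libraries and 2.09, 3.14 and 3.45 CPM in the parental libraries (2.16 ± 0.16). Peg10, an imprinted gene derived from a retrotransposon and required in placenta, had 226, 229 and 191 CPM in the Oct1 cKO libraries and 45, 48.5 and 49.6 CPM in the parental libraries (2.17 ± 0.08, adjusted p = 3.27e-09). Ascl2 rose by 1.48, Tead4 by 0.76, Gata3 by 0.77 and Cdx2 by 0.81. Against the list, Tfap2c fell, as did Esx1 (-1.22) and Fgfr2 (-1.58). Krt7 was not called (-0.38). Elf5, Hand1 and Plac1 were under the filter and Tpbpa and Prl3d1 had no counts.

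Neural genes were split, with 5 higher and 6 lower of 14 tested. Of these, 1 (Sox1) passed the filter through the Oct1 cKO libraries alone and 3, with Pax6 and Elavl4 among them, through the parental libraries alone, which set their direction. Sox1, whose octamer window is shown above, rose by 2.15, and Olig2, a factor of oligodendrocyte and motor neuron precursors, had 28.2, 25.4 and 29.99 CPM in the Oct1 cKO libraries and 14.3, 11.5 and 13.4 CPM in the parental libraries (adjusted p = 2.3e-06). Nes, an intermediate filament of neural progenitors, had 40.2, 38 and 40.0 CPM in the Oct1 cKO libraries and 65, 71.3 and 69.1 CPM in the parental libraries (-0.80 ± 0.06). The groups overlapped in neither. Pax6 (-1.22), Map2 (-0.76) and Elavl4 (-2.08) fell. In extraembryonic endoderm 6 rose (35.3%) and 5 fell (29.4%) of 17 tested, against 28.5% and 29.5% over all tested genes. Without parental replicate 2, 3 fell. Amn, among the 5 that fell, passed the filter through the parental libraries alone. Laminin genes were among those that rose, and the basement membrane collagen genes Col4a1 and Col4a2 among those that fell. In blood and endothelium 3 rose and 4 fell of 9 tested, with Tie1, an endothelial receptor, higher (2.23) and Pecam1, which ESCs also express, lower (-1.39).

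In the list of collagens and basement membrane, 14 of 15 tested collagen chains fell and 1, Col18a1, rose, while the 5 tested laminin chains rose. This split of the list was made after its values were seen. Col4a6, among the chains that fell, passed the filter through the parental libraries alone, which set its direction. Col1a1, the main chain of type I collagen, had 148, 142 and 142 CPM in the Oct1 cKO libraries and 484, 521 and 499.5 CPM in the parental libraries (-1.80 ± 0.05, adjusted p = 9.17e-10). Col1a2, on another chromosome, had 56.2, 53.8 and 54.8 CPM in the Oct1 cKO libraries and 187, 202 and 187 CPM in the parental libraries (-1.81 ± 0.06). The chains fell by similar amounts with the groups far apart. Col3a1 (-1.82), Col5a1 (-1.25) and Col12a1 (-1.31) fell too. Laminin chains of the basement membrane rose: Lamc1 had 1081, 1060.1 and 845 CPM in the Oct1 cKO libraries and 551, 542 and 549 CPM in the parental libraries (0.86 ± 0.08), and Lama1, Lama5 and Lamb1 rose by 0.82, 0.82 and 0.38. Col18a1, a basement membrane collagen, rose by 0.72. Over all 28 tested genes of the list, 7 rose and 17 fell.

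Many of these collagens also mark fibroblasts, cells that can be present in ESC cultures as feeders, which the labels do not mention. In the fibroblast list 19 of 23 tested genes fell and 2 rose, with a median of -0.94, and its summed level was 3832, 3794 and 3225 CPM in the Oct1 cKO libraries and 5928, 6063 and 6046 CPM in the parental libraries. Most of this sum was Fn1, with 2563, 2535 and 2002 CPM in the Oct1 cKO libraries and 3190, 3227 and 3265 CPM in the parental libraries. Postn had 13, 13.4 and 11.7 CPM in the Oct1 cKO libraries and 36, 38.9 and 39.2 CPM in the parental libraries, and Lox, a collagen crosslinking enzyme, had 87.8, 87.9 and 78.5 CPM in the Oct1 cKO libraries and 226, 224 and 221 CPM in the parental libraries. Both fell, as did Fbln2 (-1.62), Thbs1 (-0.94) and Fn1 (-0.45), while Twist1 (0.74) and Fbln5 (0.64) rose. Of further fibroblast markers, Thy1 (-1.06) and Pdgfrb (-0.36) fell. Lum and Fap were under the filter, and Dcn (-0.60) and Twist2 (0.37) were not called. The part of fibroblasts in the collagen result was not tested.

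Transcripts of the mitochondrial genome were lower. Of 8 tested, 7 fell and none rose (median -0.55). mt-Co1, a subunit of cytochrome oxidase, had 6828, 6706 and 6190.3 CPM in the Oct1 cKO libraries and 10863, 10401 and 10914 CPM in the parental libraries (-0.71 ± 0.05, adjusted p = 6.72e-07). mt-Nd6, the gene on the light strand, had 30.5, 29.3 and 35.1 CPM in the Oct1 cKO libraries and 105, 106 and 104 CPM in the parental libraries (-1.72 ± 0.07). mt-Nd1, mt-Nd4 and mt-Cytb fell by 0.53, 0.57 and 0.76. Mitochondrial genes took 1.44, 1.41 and 1.29% of counts in the Oct1 cKO libraries and 2.19, 2.09 and 2.18% in the parental libraries. The difference was -0.77 percentage points (2-sided exact permutation test, p = 0.1, the smallest that 3 against 3 libraries allow). Nuclear genes of the respiratory chain did not follow. Of 34 tested, 9 rose (26.5%) and 3 fell (8.82%), against 28.5% and 29.5% over all tested genes. Ndufa4 (0.41) and Cox4i1 (0.41) were higher and Uqcrfs1 (-0.29) was lower. When single libraries were left out, 5 to 11 rose and 1 to 7 fell, with 7 falling without Oct1 cKO replicate 3, 1 without any 1 other library and 5 rising without parental replicate 1.

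Glycolytic genes were mostly lower, with 16 of 26 falling, 3 rising and a median of -0.33. Pfkp, the platelet form of phosphofructokinase, had 337, 352 and 321 CPM in the Oct1 cKO libraries and 797, 803 and 822 CPM in the parental libraries (-1.26 ± 0.05, adjusted p = 6.66e-09). Ldhb, the lactate dehydrogenase form that favours lactate use, had 86.8, 88.3 and 103 CPM in the Oct1 cKO libraries and 290.0, 297 and 289.9 CPM in the parental libraries (-1.66 ± 0.06). Slc16a3, a lactate exporter, had 34.5, 35.5 and 41.6 CPM in the Oct1 cKO libraries and 124, 131 and 127 CPM in the parental libraries (-1.77 ± 0.07). These genes fell by more than 1 on the log2 scale with no overlap, as did Aldoc (-1.76) and Pfkfb3. Hk1 (-0.88), Aldoa (-0.37) and the glucose transporter Slc2a3 (-0.29) fell less, and Hk2 rose by 0.17, a call lost without parental replicate 1 or 3. Gapdh and Pkm were not called (0.14 and 0.15), but both were called in the fit of 18 libraries and without Oct1 cKO replicate 1 or 3 (0.06 and 0.09 without replicate 3), and Pkm also with DESeq2 size factors and with no filter. Fbp1, an enzyme of gluconeogenesis, was at under 1 CPM and passed the filter through the Oct1 cKO libraries alone. The number of genes that rose was 1 to 5 when single libraries were left out, with 1 without parental replicate 3 and 5 without Oct1 cKO replicate 1 or 3.

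Several genes of serine and proline synthesis were lower. In the list of the integrated stress response and serine synthesis, 12 of 22 fell and 3 rose, with 1 rising without parental replicate 1 or 2. The serine pathway genes Phgdh, Psat1 and Psph act in sequence. Psat1 had 175, 169 and 178 CPM in the Oct1 cKO libraries and 359.8, 364 and 370.3 CPM in the parental libraries (-1.07 ± 0.05, adjusted p = 1.19e-08), and Phgdh and Psph fell by 0.88 and 0.79. Mthfd2, of mitochondrial folate metabolism, had 58.4, 57.6 and 62.2 CPM in the Oct1 cKO libraries and 115, 115 and 118 CPM in the parental libraries (-0.96 ± 0.05). The proline synthesis genes Pycr1 (-1.53) and Aldh18a1 (-0.86) fell. Atf4, the transcription factor of this response, rose slightly (0.18), as did Asns (0.12), and both calls were lost under some alternatives (adjusted p between 7.59e-07 and 0.0683 for Atf4 and between 0.000208 and 0.172 for Asns). Cth, which makes cysteine from cystathionine, rose, with 269.5, 269 and 264 CPM in the Oct1 cKO libraries and 101, 104 and 104 CPM in the parental libraries (1.37 ± 0.05, adjusted p = 3.22e-09). The cystine transporter gene Slc7a11, with its octamer window shown above, fell by 2.19.

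Sterol synthesis genes fell in 13 of 19 cases and rose in 1 (median -0.31). Between 0 and 3 rose when single libraries were left out, 0 without Oct1 cKO replicate 2 or parental replicate 1 or 3, 3 without Oct1 cKO replicate 1 and 2 without Oct1 cKO replicate 3. Insig1, which retains the sterol sensor in the endoplasmic reticulum, had 84.8, 92.9 and 84.8 CPM in the Oct1 cKO libraries and 184, 179 and 179 CPM in the parental libraries (-1.05 ± 0.05, adjusted p = 3.62e-08). Cyp51, Dhcr7 and Fdps, enzymes of the pathway, fell by 0.76, 0.81 and 0.64. Sqle, squalene epoxidase, rose by 0.17, a call lost without Oct1 cKO replicate 2 or any 1 parental library (adjusted p between 1.45e-07 and 0.0667 over the alternatives). Genes of the oxidative stress response were split, with 9 higher and 11 lower of 26. Oct1 is known as a factor of this response, and its genes are given for that reason. Gpx1, a peroxide-reducing enzyme, had 436, 427 and 551 CPM in the Oct1 cKO libraries and 231, 253 and 234 CPM in the parental libraries (0.98 ± 0.09), and Nqo1, a quinone reductase, rose by 0.79. Sqstm1, an autophagy receptor on chromosome 11, fell by 0.84 and Gclc, which makes glutathione, by 0.38. Without Oct1 cKO replicate 2 or parental replicate 2, 7 genes of the list fell.

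**Figure D4:**
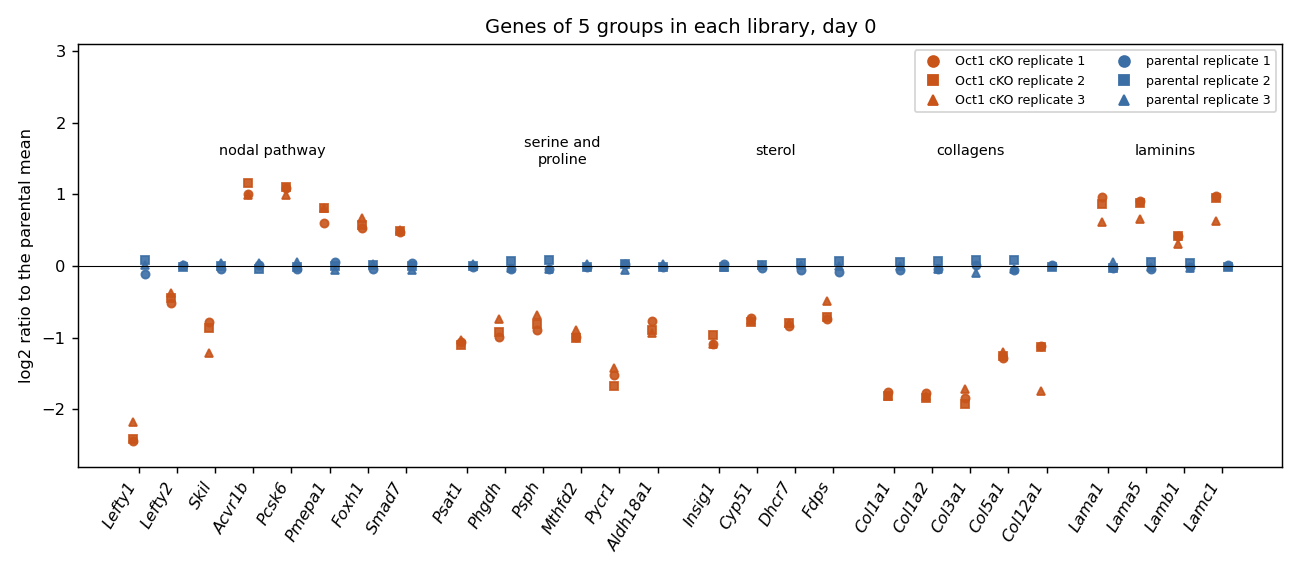
Log2 ratio to the parental mean for genes of 5 groups, with each Oct1 cKO library (orange) left of each parental library (blue). Lefty1, the serine and proline genes, the sterol genes and the collagens lie below 0 in every Oct1 cKO library, and the 4 laminins lie above 0.

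The lists of other signalling and growth genes held members of both directions. In the FGF and ERK response 7 of 22 rose (31.8%) and 4 fell (18.2%), against 28.5% and 29.5% over all tested genes. Another 11 were not called. The ERK-induced genes Etv4 (2.38) and Spry4 (1.59) rose, with 11.7, 11 and 12.2 CPM of Etv4 in the Oct1 cKO libraries and 2.38, 1.99 and 2.36 CPM in the parental libraries. Dusp6 (0.74) and Phlda1 (0.97) rose and Ier3 (-0.90) fell. Etv5 (0.08), Spry2 (0.06), Egr1 (0.25), Fos (-0.01) and Dusp4 (-0.31) were not called. In the Wnt pathway 9 rose and 9 fell of 26. Axin2, a feedback target of beta-catenin, had 34.5, 37.8 and 33.7 CPM in the Oct1 cKO libraries and 66.6, 69.2 and 67.3 CPM in the parental libraries (-0.94 ± 0.06). Sfrp1, a secreted Wnt antagonist, had 356, 350.0 and 326 CPM in the Oct1 cKO libraries and 134, 125 and 131 CPM in the parental libraries (1.40 ± 0.05). Axin2 thus fell and Sfrp1 rose, each without overlap. Of the Tcf genes, Tcf7 fell (-0.75) and Tcf7l2 rose (1.43), and Cdx1, a Wnt and retinoid target, rose by 1.64.

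In the Igf and insulin list 9 of 17 fell and 2 rose. Besides Igfbp4, Igfbp5 (-1.29) and the imprinted receptor gene Igf2r (-0.98) fell, and Irs2 rose (0.64). In the retinoid list 5 rose and 6 fell of 14. The retinoic acid receptor gene Rarg had 109, 106 and 111 CPM in the Oct1 cKO libraries and 40.4, 43.4 and 41.1 CPM in the parental libraries (1.38 ± 0.06, adjusted p = 6.63e-09). Dhrs3, a retinal reductase, rose by 1.41. The number of retinoid genes that rose was 3 without parental replicate 1 and 2 under DESeq2.

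Of 27 tested p53 targets and cell death genes, 15 rose and 3 fell, by small amounts (median 0.20). Perp (0.74), Btg2 (0.61), Phlda3 (0.61) and Bax (0.43) rose, Gadd45b fell (-0.61), and Trp53 and Cdkn1a were not called (0.04 and 0.06). In the list of DNA replication and cell cycle, 13 of 33 rose (39.4%) and 9 fell (27.3%), against 28.5% and 29.5% over all tested genes. Cdk4, the kinase partner of D-type cyclins, had 614, 607 and 698 CPM in the Oct1 cKO libraries and 397, 415 and 400.1 CPM in the parental libraries (0.66 ± 0.06). The cyclin genes Ccnd3 (0.47) rose and Ccnd2 (-1.01) and Ccne2 (-0.83) fell. Histone H2B genes carry an octamer that Oct1 binds in S phase, but of 19 such genes on the list 4 passed the filter and 3 of those fell. Hist1h2bj and Hist1h2bm passed through the parental libraries alone, so they had to be lower in the Oct1 cKO cells. Hist1h2bc had 3.16, 5.35 and 5.66 CPM in the Oct1 cKO libraries and 7.83, 6.38 and 8.35 CPM in the parental libraries (-0.65 ± 0.18, or -0.43 without Oct1 cKO replicate 1), and the calls of Hist1h2bj and Hist1h2bm were lost under DESeq2 and without Oct1 cKO replicate 2 or parental replicate 2, and that of Hist1h2bm also without Oct1 cKO replicate 1. Replication-dependent histone transcripts lack a poly(A) tail and near-identical copies share reads, so these levels are uncertain.

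Adhesion and epithelial genes were split as well, with 10 of 24 higher and 10 lower. Cdh1 (E-cadherin) was not called (0.05), but was called without Oct1 cKO replicate 3 (0.08). Cdh3 (P-cadherin) had 24.1, 26 and 23.7 CPM in the Oct1 cKO libraries and 70.7, 73.4 and 70.0 CPM in the parental libraries (-1.54 ± 0.06, adjusted p = 6.87e-09), and the splicing factor gene Esrp1 fell by 1.86. Cldn4, a tight junction claudin, had 66.3, 69 and 84 CPM in the Oct1 cKO libraries and 27, 30.1 and 29.5 CPM in the parental libraries (1.34 ± 0.09). Cdh3 thus fell and Cldn4 rose, with the groups apart in both.

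**Figure D5:**
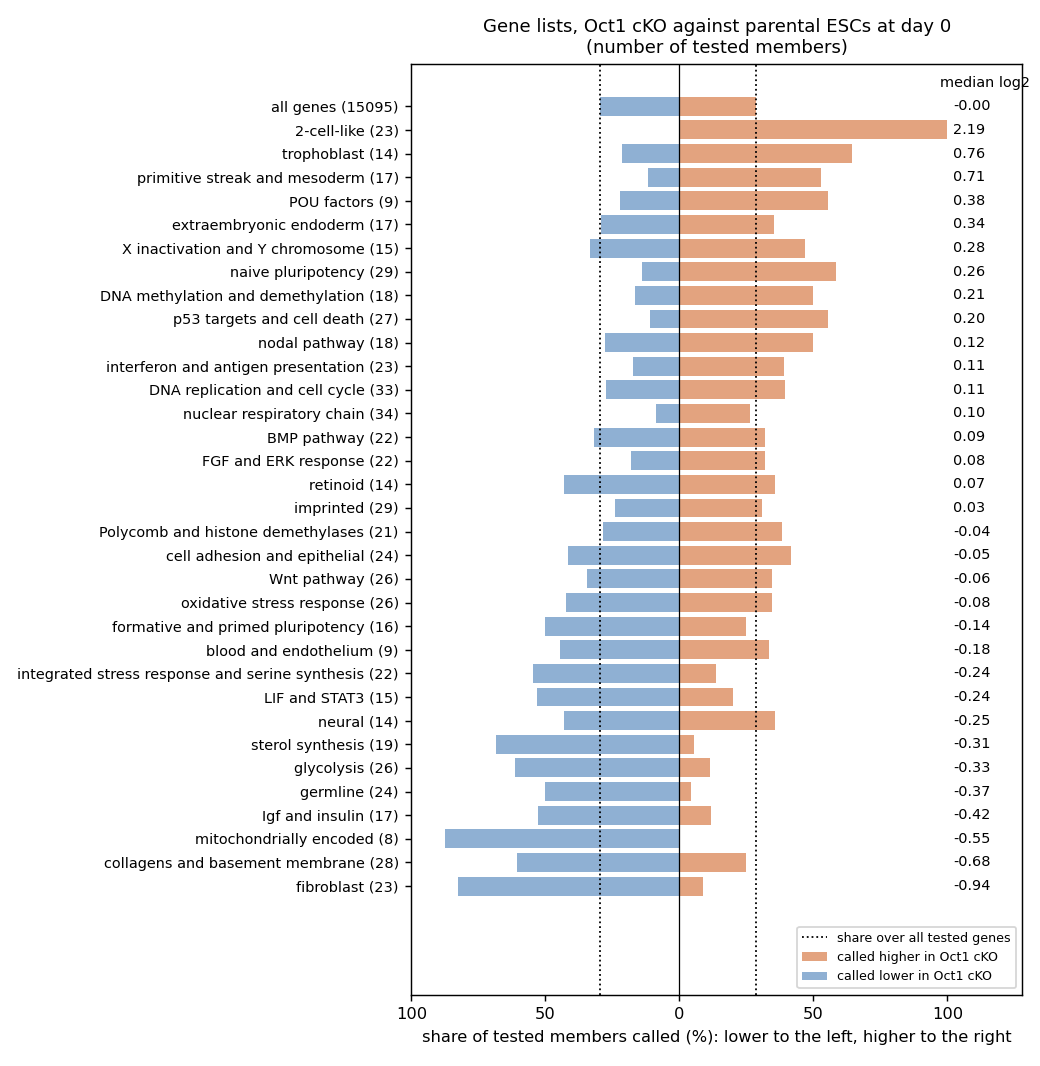
Share of the tested members of each gene list called lower (left, blue) and higher (right, orange) in Oct1 cKO against parental ESCs, with the median log2 fold change of the members that passed the filter at the right and dotted lines at the shares over all 15095 tested genes, 29.5% and 28.5%. The 2-cell-like list has all 23 tested members on the higher side, of which 16 reached the filter in both groups and 7 in the Oct1 cKO libraries alone, and the fibroblast list has 19 of 23 on the lower side; the histone H2B list, with 4 tested members, is not drawn.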

How the data were processed

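Bulk RNA-seq was measured in mouse ESCs. The authors deposited counts, not normalized, for 21995 Ensembl genes in 1 table. Per the submitters' processing notes, Novoalign, DESeq2 1.10.0 and the builds mm10 and GRCm38 were involved, with no role given. Of the counter, annotation release and strand setting, nothing is given in the sources used here. Per the labels' protocols, cells were trypsinized, RNA was isolated and Illumina libraries were made.

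Libraries were grouped by genotype and day in the labels, and replicate numbers only name them. The labels do not say that libraries came from separate cultures, so the p-values rest on a spread among libraries that may be technical. Total counts ran from 13694126 to 19072464. No pair of libraries of a group agreed within sampling noise, and all were kept.

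The quasi-likelihood test of edgeR 4.0.16 (TMM factors, filterByExpr with a minimum count of 10 and total of 15, robust fits) in R 4.3.3 was fitted to the 6 day 0 libraries alone. Its script was tested on simulated counts with known changes. P-values were adjusted by Benjamini-Hochberg over the 15095 genes that passed, and called under 0.05. CPM use the TMM library size, and the SE is the log2 fold change over the root of the F statistic. Limits for counts of 0 rest on 3 counts and cover counting error only. Positions come from GENCODE vM21 (GRCm38), which held all 21995 identifiers, and promoters from RefSeq GRCm38.p6. Chromosome medians used log2(CPM + 0.5) for the libraries.

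The 34 gene lists, the members and the rules were chosen with earlier results of these data known, and counts of list members are descriptions without a test. A few genes are not reported here and are left out of the lists. Named genes are the POU and nodal lists, leading called members of the other lists, the 12 largest changes each way at 2 CPM or more without overlap, the 10 largest changes in CPM, and a few genes a reader looks for; fewer are named than the rule allows. Genes with predicted or clone-type symbols (Gm, Rik and similar) were not ranked, 398 among the called genes at 2 CPM or more without overlap. Alternatives were DESeq2 size factors, library sizes alone, no filter, DESeq2 1.42.0, a fit of all 18 libraries, a fold of 2, leaving out chromosome 11 and leaving out each library.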

Additional observations from a re-analysis of the deposited data

How the results depend on the processing

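The counts of genes called stayed within 1.5 times under every alternative run other than the fold minimum: 4302 genes rose and 4451 fell, and 848 and 961 at a fold of at least 2. Leaving out single libraries gave 3658 to 4866 that rose and 3887 to 4867 that fell, the most without Oct1 cKO replicate 3. The Oct1 cKO spread in that fit is that of the close replicates 1 and 2, so its adjusted p-values are small. It gave the lowest adjusted p over the alternatives for Nodal, Ski, T, Atf4, Asns and Sqle. DESeq2 called 3713 higher and 3795 lower. Leaving out single libraries gave log2 fold changes of -0.78 to -0.54 for Pou2f1, 0.67 to 0.83 for Pou5f1, 3.32 to 3.47 for Pou2f3 and -2.42 to -2.28 for Lefty1, a median of -0.39 to -0.37 for chromosome 11 and a mitochondrial share lower by a difference of -0.80 to -0.73 points. All of these kept their direction, and the 4 genes were called each time. Another scaling moved the median of all genes by less than 0.02.

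Of 251 genes followed, 224 kept direction and side of the threshold under every alternative run. Among 2984 values, 56 lost the call, 16 gained it and 16 changed sign. The sign changes were all in genes that were not called. Tdgf1 was at 0.0047 with DESeq2 size factors and 0.0021 under DESeq2, and Smad4 at -0.015 with library sizes alone, -0.0021 with no filter, -0.0027 with 18 libraries and -0.019 without chromosome 11. Leaving out single libraries gave -0.012 to 0.019 for Tdgf1, -0.038 to 0.070 for Smad4, -0.081 to 0.11 for Pou4f1 and -0.18 to 0.040 for Pou6f1. The cause of these changes was not tested.

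No paired analysis was possible because the labels give no replicate numbers, and those used follow the order of the samples. Depth limits the genes under the filter, such as most histone H2B genes and Duxf3.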

Other observations

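Genes of the Y chromosome did not move together. Kdm5d, a histone demethylase gene, had 6.95, 7.63 and 5.66 CPM in the Oct1 cKO libraries and 27.2, 26.7 and 27.3 CPM in the parental libraries (-2.02 ± 0.10, adjusted p = 2.83e-08). Ddx3y, an RNA helicase gene, had 255, 271 and 214 CPM in the Oct1 cKO libraries and 129.8, 127 and 124 CPM in the parental libraries (0.96 ± 0.08), and Uty, a demethylase relative, rose by 0.89. Kdm5d thus fell while Ddx3y and Uty rose, and the groups overlapped in none of them. In the list of X inactivation and Y chromosome, 7 of 15 tested genes rose and 5 fell. Tsix, the antisense partner of the X inactivation RNA, rose by 0.96, and reads of the pair cannot be told apart without strand.

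Imprinted genes rose in 9 (31%) and fell in 7 (24.1%) of 29 tested cases, against 28.5% and 29.5% over all tested genes. Beside Peg10, the maternally expressed noncoding RNAs Rian (0.57) and Mirg (1.03) of chromosome 12 rose, and Mest rose by 0.61. Usp29 had 5.55, 5.06 and 4.57 CPM in the Oct1 cKO libraries and 16.1, 15.5 and 14 CPM in the parental libraries (-1.60 ± 0.11). It fell, as did Grb10 (-0.99), Phlda2 (-1.24) and, slightly, H19 (-0.23), a call lost without Oct1 cKO replicate 1. In the list of interferon and antigen presentation, 9 of 23 tested genes rose and 4 fell.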
